A study of Mus musculus with 10 samples.

Results

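Flavin-containing monooxygenases (FMOs) are enzymes of the endoplasmic reticulum that use NADPH, oxygen and a bound FAD to add oxygen to soft nitrogen and sulfur atoms of drugs, amines and thiols. Unlike cytochromes P450 they take their electrons directly from NADPH and need no separate reductase. In mouse liver they share the phase I oxidation of foreign compounds with the P450 enzymes, and the family has also been tied to lipid and glucose handling. Here 4 genes of the family, Fmo1, Fmo2, Fmo4 and Fmo5, were followed by every probe set that the platform annotation gives to exactly 1 of them. These were 10 of the 45101 probe sets on the array, or 4 of 18194 singly named genes. Other genes of the family were not analysed here.

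Liver RNA came from 10 female C57BL/6 mice, 3 months old, with 1 array per animal and 5 animals per genotype. All carried a homozygous targeted replacement of the mouse Apoe gene by a human APOE gene that remains under the mouse Apoe promoter. The replacement was APOE3 (B6.129P2-Apoetm2(APOE*3)Mae N8) in one group and APOE4 (B6.129P2-Apoetm3(APOE*4)Mae N8) in the other, so no animal with the mouse gene was included. Both groups ate a high-fat diet in which milk fat supplied 41% of the energy, with 2 g/kg cholesterol, for a time that the labels give as 6 weeks in one place and 2 months in another. The values are log2 expression values made by the authors with GCRMA, a method that corrects background by probe base content and puts undetected transcripts at a low floor. A probe set was tested when its mean over all 10 arrays reached 4, as 14732 did. A probe set's level depends on its own probes, so levels are compared between animals and never between probe sets.

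As a check on the replacement, the single probe set of mouse Apoe, the gene replaced in both groups, read 0.96 to 1.19 over the 10 arrays. This reading cannot tell APOE3 from APOE4 animals. The array median over all probe sets was 2.66 ± 0.01 in APOE3 and 2.62 ± 0.01 in APOE4 (SD, n = 5 each; exact permutation p = 0.0079, the smallest this design allows), and its part in the FMO values was not tested. All 11 measured hepatocyte markers were above 4 on all arrays. All 7 kidney tubule markers were under 4 on every array, as were 4 of 5 cholangiocyte, 6 of 8 lymphocyte, 3 of 5 adipocyte and 3 of 4 exocrine pancreas markers. The rest of these went the other way. Sox9 read 3.2 to 4.1, Ms4a1 3.5 to 5.1 and Ptprc 6.8 to 9.0. Fabp4 read 8.0 to 9.8, Car3 13.3 to 13.9 and Cela1 8.1 to 8.8. Kupffer cell and macrophage markers were present, with 12 of 13 above 4 on all arrays and a summed level of 13.10 to 14.27 in APOE3 and 12.90 to 13.87 in APOE4 (log2 of the summed linear values). By single genes 12 of these 13 had negative differences between APOE4 and APOE3, and 0 passed. Endothelial markers, all 11 above 4 on all arrays, summed to 11.47 to 11.71 in APOE3 and 11.45 to 11.93 in APOE4, and stellate cell and fibroblast markers, 9 of 11 above 4 on all arrays, to 12.26 to 12.60 and 12.21 to 12.62. The part of these cell types in the FMO values was not tested. In whole liver, fewer cells of a type and less RNA per cell cannot be told apart.

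No FMO gene passed the test between genotypes. Fmo5 and Fmo1 had the smallest p-values and pointed in opposite directions, with Fmo5 lower in APOE4 livers by all 3 of its probe sets and Fmo1 higher by its only one. Fmo2 showed no common direction over its probe sets, and Fmo4 was near background in both genotypes. Of the 7 FMO probe sets tested, 2 had positive and 5 negative differences, with a median of -0.15 log2 against 0.05 over all tested probe sets. The adjusted p was between 0.61 and 0.96 (limma, Benjamini-Hochberg over all 14732). That 0 of 7 passed is to be read against the 0.0815% of all tested probe sets that did. An unadjusted p under 0.05 was reached by 1 of the 7, and in either direction by 8% of all tested probe sets. In 0 of the 7 did the genotypes separate without overlap, which they did in 2.02% of all tested probe sets. Centring each array on its median over the tested probe sets lowered all 7 differences by the same amount, and they kept their signs. Fmo1 went from 0.18 to 0.13 log2, Fmo5 at 1421709_a_at from -0.51 to -0.57 and at 1450332_s_at from -0.34 to -0.40. The Fmo2 probe set 1435459_at went from -0.06 to -0.12 and 1453435_a_at from 0.11 to 0.05.

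**Figure D1:**
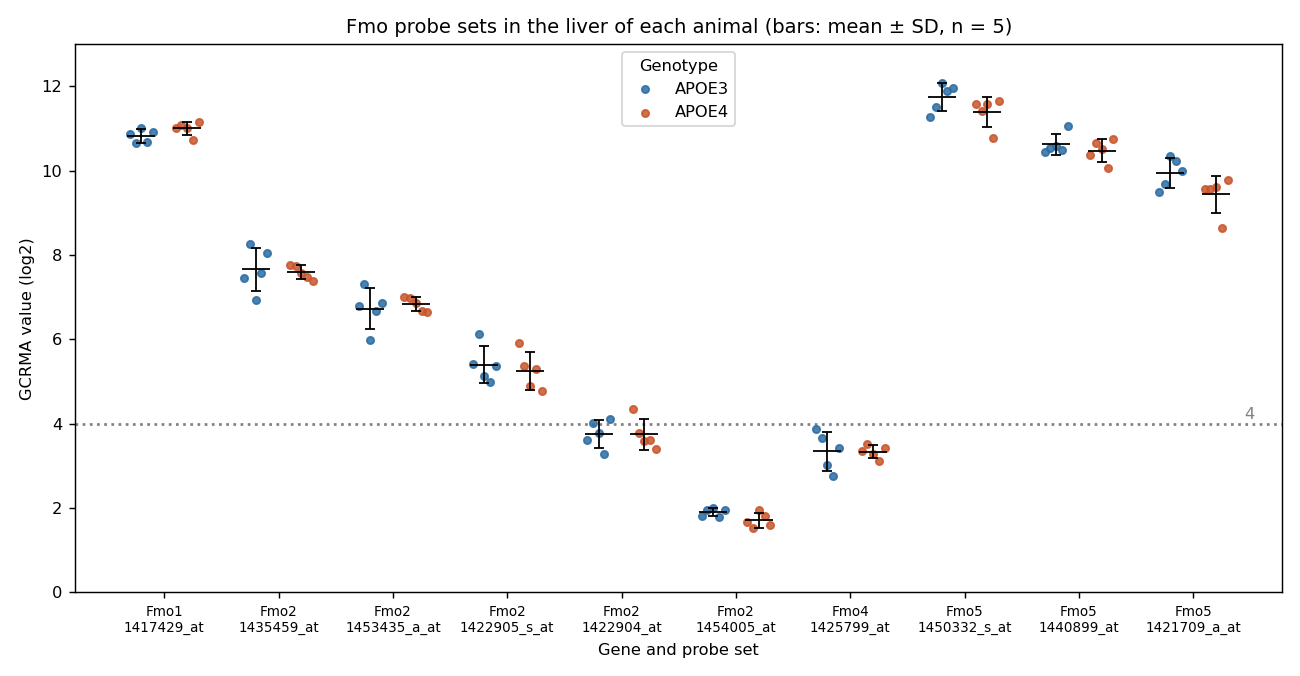
Log2 GCRMA value (vertical axis) of each of the 10 FMO probe sets (horizontal axis) in each animal; points are animals, blue for APOE3 and orange for APOE4, and black bars are the mean ± SD of 5. The dotted line is the level of 4 required for testing. The genotypes overlap at every probe set, and the single Fmo4 probe set and the Fmo2 probe set 1454005_at lie under 4 in all animals.

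Fmo5 is an atypical family member: it acts poorly on the amine and sulfide substrates of the other FMOs and catalyses Baeyer-Villiger oxidations of ketones, and mice that lack it stay lean as they age. Its probe set 1421709_a_at read 9.50, 9.68, 10.34, 10.23 and 9.99 in APOE3 replicates 1 to 5, and 9.56, 9.57, 9.62, 8.65 and 9.78 in APOE4 replicates 1 to 5. APOE4 replicate 4 was the lowest of all animals, APOE3 replicates 3 and 4 were the highest, and the genotypes overlapped because APOE3 replicates 1 and 2 were in the APOE4 range. The mean was 9.95 ± 0.36 in APOE3 and 9.44 ± 0.45 in APOE4 (SD, n = 5 each), 1.43-fold lower in APOE4. All 5 APOE4 animals were under the APOE3 median. The difference of -0.51 log2 (SE 0.23, 95% confidence interval -1.01 to -0.01) had an unadjusted p = 0.045 and an adjusted p = 0.61 in limma. An exact permutation test over the 252 splits of the arrays gave p = 0.0714 (two-sided).

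The second Fmo5 probe set, 1450332_s_at, gave nearly the same ranking of animals. It read 11.28, 11.50, 12.07, 11.88 and 11.96 in APOE3 replicates 1 to 5, and 11.57, 11.42, 11.57, 10.76 and 11.65 in APOE4 replicates 1 to 5. Again APOE4 replicate 4 was lowest, and APOE3 replicates 3, 4 and 5 were above every APOE4 animal. The means were 11.74 ± 0.33 and 11.39 ± 0.36 (SD, n = 5 each), a 1.27-fold lower level in APOE4 and a difference of -0.34 log2 (SE 0.20, interval -0.78 to 0.09, adjusted p = 0.69 in limma). The suffix _s_at marks a probe set that may match more than one gene's transcripts, so related transcripts could add to it.

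The third Fmo5 probe set, 1440899_at, separated the animals less. It read 10.44, 10.53, 10.58, 10.48 and 11.06 in APOE3 replicates 1 to 5, and 10.36, 10.66, 10.52, 10.05 and 10.75 in APOE4 replicates 1 to 5. APOE4 replicate 4 was lowest here too, but APOE3 replicate 5 alone stood high and the rest of both groups intermingled. The difference was -0.15 log2 (SE 0.16, interval -0.49 to 0.20, adjusted p = 0.84 in limma). Over the 10 animals, 1421709_a_at followed 1450332_s_at closely (Pearson r = 0.969, permutation p = 0.00003; Spearman rho = 0.903, permutation p = 0.00082; adjusted over 6 pairs of probe sets of the same gene, 0.00018 and 0.0033). Without APOE4 replicate 4 and APOE3 replicate 3, the animals farthest from the median, r was 0.887. The r of 1440899_at with 1450332_s_at was 0.705 (permutation p = 0.0321, adjusted 0.0606; rho = 0.539, permutation p = 0.116, adjusted 0.116), 0.55 without those animals and 0.12 without APOE3 replicate 5 and APOE4 replicate 4. With 1421709_a_at it was 0.636 (permutation p = 0.0546, adjusted 0.0656; rho = 0.636, permutation p = 0.0534, adjusted 0.0801), 0.131 without APOE3 replicate 5 and APOE4 replicate 4 and 0.37 without APOE4 replicate 4 and APOE3 replicate 3. Both relations of 1440899_at rest on those 2 animals, APOE3 replicate 5 and APOE4 replicate 4.

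The size of the Fmo5 difference depended on APOE4 replicate 4. Without it the differences became -0.32 log2 at 1421709_a_at and -0.19 at 1450332_s_at. They were largest without APOE3 replicate 1, at -0.62 and -0.46, and no adjusted p fell under 0.37 when 1 animal was left out. At 1440899_at the difference shrank to -0.04 without APOE3 replicate 5 and also to -0.04 without APOE4 replicate 4. The direction was kept by all 3 probe sets in each of these fits.

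**Figure D2:**
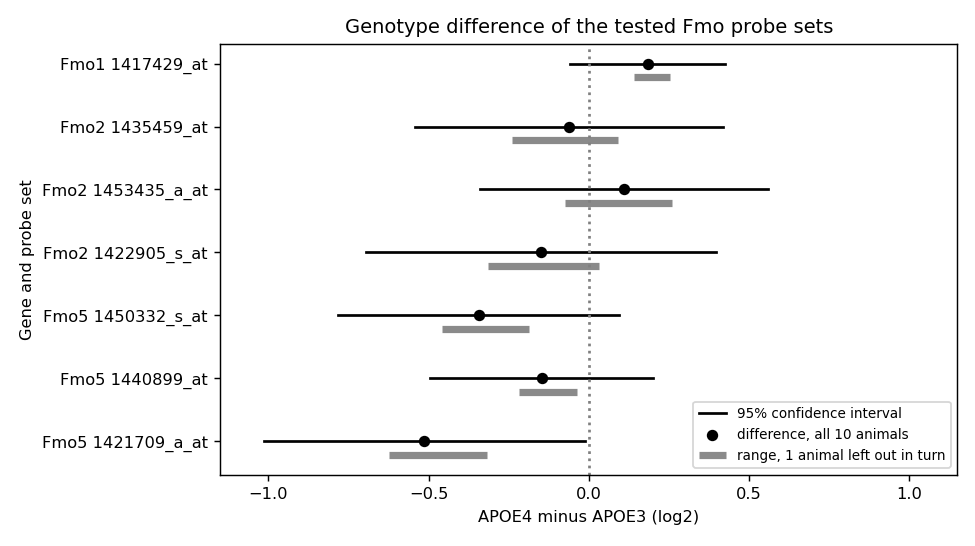
Difference APOE4 minus APOE3 (horizontal axis, log2) for the 7 tested FMO probe sets (vertical axis); points are the fitted differences, black lines their 95% confidence intervals and grey bars the range when each animal was left out in turn. The 3 Fmo5 bars stay under 0, the Fmo1 bar stays above it between 0.14 and 0.25, and the 3 Fmo2 bars cross it.

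Fmo1 is the broad-specificity family member, a major FMO of mouse liver and kidney that oxygenates many tertiary amines and sulfur compounds. Its probe set 1417429_at read 10.86, 10.65, 11.01, 10.67 and 10.91 in APOE3 replicates 1 to 5, and 11.02, 11.09, 11.02, 10.73 and 11.14 in APOE4 replicates 1 to 5. In APOE4, 4 animals were above the whole APOE3 group, and only replicate 4 fell into the APOE3 range. The means were 10.82 ± 0.16 and 11.00 ± 0.16 (SD, n = 5 each), 1.14-fold higher in APOE4. The difference of 0.18 log2 (SE 0.11, interval -0.06 to 0.43) had an unadjusted p = 0.125 and an adjusted p = 0.70 in limma, and the exact permutation p was 0.119. It was 0.25 without APOE4 replicate 4 and 0.14 without APOE3 replicate 2, and its lowest adjusted p with 1 animal left out was 0.57. Fmo1 varied little, over 0.49 log2 in all 10 animals, and the interval limits any genotype difference to between 0.96-fold and 1.34-fold.

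The 3 animals with the lowest Fmo1, namely APOE3 replicates 2 and 4 and APOE4 replicate 4, were also those with the largest gap between the 3' and 5' control probe sets of Actb and Gapdh (3' minus 5'), a measure of RNA integrity. For Actb that difference was 3.20, 2.85 and 2.97 in them and 2.22 to 2.70 in the other animals, and for Gapdh 0.729, 0.551 and 0.617 against 0.203 to 0.407. Across animals Fmo1 correlated with the Actb difference at r = -0.653 (permutation p = 0.0387, adjusted over 6 relations 0.116; rho = -0.455, permutation p = 0.191, adjusted 0.577). With the Gapdh difference it was r = -0.695 (permutation p = 0.025, adjusted 0.116; rho = -0.455, permutation p = 0.192, adjusted 0.577). Without APOE3 replicate 2 and APOE4 replicate 4 the r values were -0.251 and -0.337, so both relations rest on those 2 animals. For Fmo5 1450332_s_at the r values were -0.42 with Actb and -0.205 with Gapdh (permutation p = 0.227 and 0.569, adjusted 0.454 and 0.624; rho = -0.333 and -0.018, adjusted 0.697 and 0.973), and -0.064 and 0.622 without those animals. For Fmo2 1435459_at they were 0.181 and 0.262 (both adjusted permutation p = 0.624; rho = -0.103 and -0.03, both adjusted 0.973), and -0.469 and -0.274 without them. The genotypes did not differ in these measures beyond their spread (Actb 2.68 ± 0.37 and 2.64 ± 0.20, exact permutation p = 0.881; Gapdh 0.44 ± 0.21 and 0.40 ± 0.13, exact permutation p = 0.7302; SD, n = 5 each). With the Actb difference as a covariate, the genotype difference of Fmo1 was 0.17 log2 (adjusted p = 0.64 in limma) and that of Fmo5 1421709_a_at -0.53 (0.56).

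**Figure D3:**
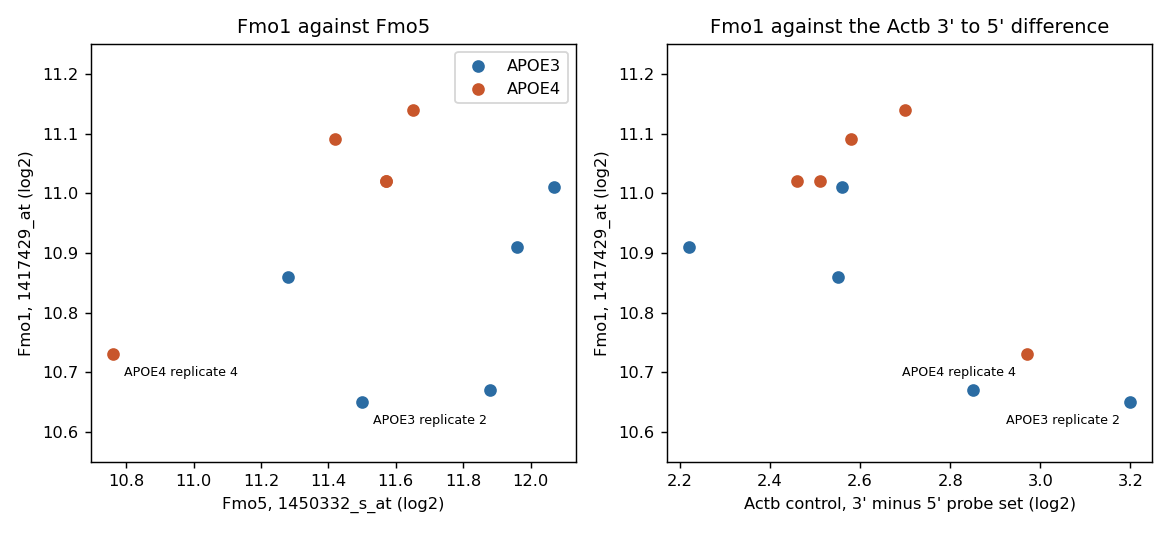
Fmo1 value (vertical axes, log2) against the Fmo5 probe set 1450332_s_at (left, log2) and against the gap between the 3' and 5' Actb controls (right, 3' minus 5', log2), 1 point per animal, blue for APOE3 and orange for APOE4. On the left APOE4 replicates 1 and 3 coincide at 11.57 and 11.02, and APOE4 replicate 4 is lowest in Fmo5; on the right the 3 animals with the lowest Fmo1 have the 3 highest control differences.

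Fmo2 is best known as the FMO of lung. Its probe set with the highest mean, 1435459_at, read 7.46, 8.27, 6.94, 7.57 and 8.04 in APOE3 replicates 1 to 5, and 7.77, 7.74, 7.58, 7.48 and 7.39 in APOE4 replicates 1 to 5. The APOE4 animals lay close together inside the APOE3 range, which ran from replicate 3 to replicate 2. The means were 7.65 ± 0.52 and 7.59 ± 0.16 (SD, n = 5 each), and the difference was -0.06 log2 (SE 0.22, interval -0.54 to 0.42, adjusted p = 0.96 in limma).

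The probe set 1453435_a_at showed the same layout. It read 6.78, 7.32, 5.99, 6.68 and 6.86 in APOE3 replicates 1 to 5, and 7.01, 6.97, 6.87, 6.68 and 6.65 in APOE4 replicates 1 to 5. APOE3 replicate 2 was again highest and APOE3 replicate 3 lowest. The means were 6.73 ± 0.48 and 6.84 ± 0.16 (SD, n = 5 each), and the difference was 0.11 log2 (SE 0.20, interval -0.34 to 0.56, adjusted p = 0.92 in limma). At both probe sets the SD within APOE3 exceeded that within APOE4, by 3.16 and 2.90 times, a difference in spread that was not tested.

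The third tested Fmo2 probe set, 1422905_s_at, read 5.41, 6.12, 5.12, 4.98 and 5.36 in APOE3 replicates 1 to 5, and 5.91, 5.36, 4.90, 5.30 and 4.77 in APOE4 replicates 1 to 5. APOE3 replicate 2 was highest here too, while the spread was alike in both genotypes (5.40 ± 0.44 and 5.25 ± 0.45, SD, n = 5 each). The difference was -0.15 log2 (SE 0.25, interval -0.70 to 0.40, adjusted p = 0.90 in limma). As an _s_at probe set, 1422905_s_at may match more than 1 gene's transcripts, like 1450332_s_at of Fmo5. Across animals 1435459_at and 1453435_a_at ran together (r = 0.911, permutation p = 0.00061, adjusted 0.00183; rho = 0.891, permutation p = 0.0011, adjusted 0.0033), and r was 0.662 without APOE3 replicates 2 and 3. The r of 1422905_s_at was 0.654 with the former (permutation p = 0.0404, adjusted 0.0606; rho = 0.6, permutation p = 0.0727, adjusted 0.0873) and 0.612 with the latter (permutation p = 0.0656, adjusted 0.0656; rho = 0.697, permutation p = 0.031, adjusted 0.0619). Without APOE3 replicates 2 and 3 these were 0.497 and 0.68, and without APOE3 replicate 2 and APOE4 replicate 1, the animals farthest from the median of 1422905_s_at, 0.333 and 0.21.

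The sign of each Fmo2 difference depended on 1 animal. Without APOE3 replicate 2 the difference was 0.09 log2 at 1435459_at and 0.03 at 1422905_s_at, and without APOE3 replicate 5 it was 0.03 at 1435459_at. Without APOE3 replicate 3 it was -0.07 at 1453435_a_at. The remaining Fmo2 probe sets were not tested. At 1422904_at 3 APOE3 and 4 APOE4 animals were under 4, with a range of 3.28 to 4.34, and at 1454005_at all 10 were, from 1.53 to 2.00.

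**Figure D4:**
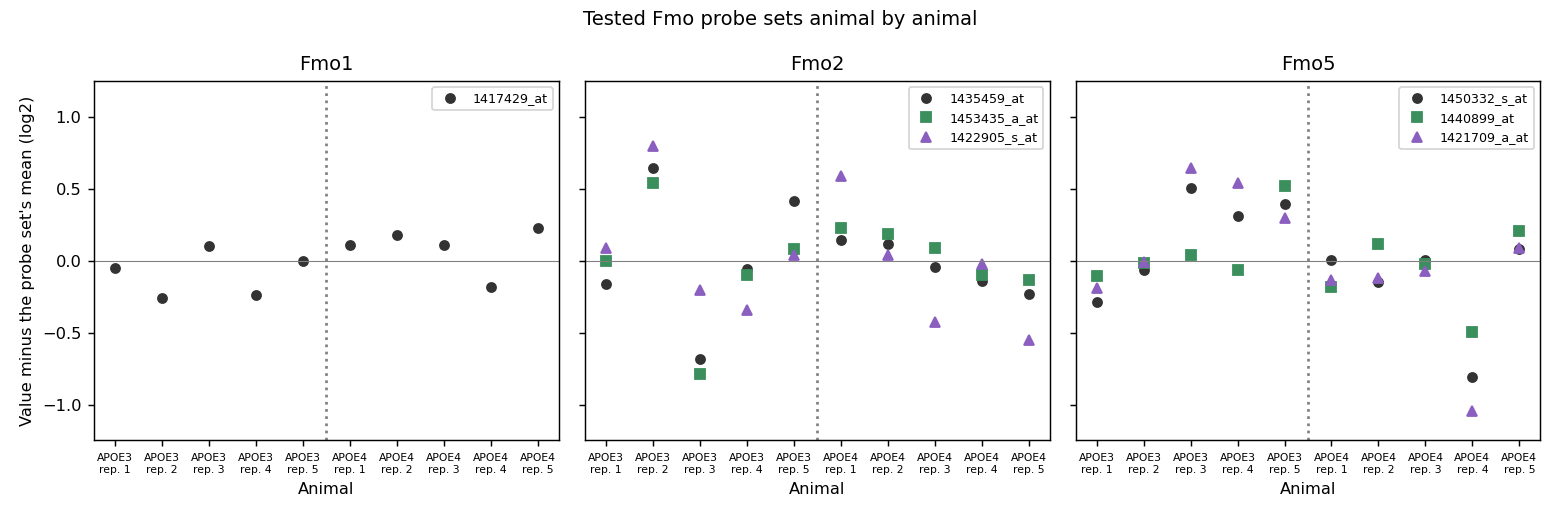
Value of each tested FMO probe set minus its own mean over all animals (vertical axis, log2) in the 10 animals (horizontal axis), for Fmo1, Fmo2 and Fmo5; marker shapes are probe sets and the dotted line divides APOE3 from APOE4. The Fmo5 probe sets share a low point in APOE4 replicate 4, and the Fmo2 probe sets share a high point in APOE3 replicate 2.

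Fmo4, a little-studied family member that is scarce in most tissues, had a single probe set, 1425799_at, under 4 on all 10 arrays. It read 3.87, 3.65, 3.02, 2.76 and 3.42 in APOE3 replicates 1 to 5, and 3.35, 3.53, 3.27, 3.11 and 3.43 in APOE4 replicates 1 to 5. The APOE4 values lay within the APOE3 range. The means were 3.34 ± 0.46 and 3.34 ± 0.16 (SD, n = 5 each), and no fold is given because both groups were near the floor. Fitted without the level filter, the difference was -0.01 log2 (SE 0.19, adjusted p = 0.996 in limma).

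The FMO genes did not vary as one group across animals. Taking for each gene the tested probe set with the highest mean, r was 0.238 for Fmo1 with Fmo5 (permutation p = 0.523; rho = 0.152, permutation p = 0.683), -0.358 for Fmo1 with Fmo2 (permutation p = 0.313; rho = -0.248, permutation p = 0.49) and -0.099 for Fmo2 with Fmo5 (permutation p = 0.785; rho = -0.103, permutation p = 0.786). Adjusted over the 3 pairs, the lowest of these p-values was 0.784. Each pair was also taken without the 2 animals farthest from the median of either gene. For Fmo1 with Fmo5, r was 0.57 without APOE3 replicates 2 and 4 (farthest in Fmo1) and -0.192 without APOE4 replicate 4 and APOE3 replicate 3 (farthest in Fmo5). For Fmo1 with Fmo2 it was -0.053 without the former and 0.102 without APOE3 replicates 2 and 3 (farthest in Fmo2). For Fmo2 with Fmo5 it was 0.486 by Fmo2 and 0.166 by Fmo5, so the sign of all 3 depended on which animals were included. Within genotypes, after each genotype's mean was subtracted, Fmo1 and Fmo5 had r = 0.679 (exact permutation p = 0.0447, adjusted over the 3 pairs 0.134; rho = 0.709). Without APOE4 replicate 4, which was lowest in Fmo5 and lowest of its genotype in Fmo1, that r was 0.373 (exact permutation p = 0.45), so the size of the relation rests on that animal. With each of the other animals left out in turn r was 0.613 (without APOE3 replicate 3) to 0.863 (without APOE3 replicate 1). The exact permutation p was then 0.00694 to 0.125, and of these it was under 0.05 only without APOE3 replicate 1 or APOE3 replicate 4.

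Among 8532 other named genes with a tested probe set, those whose values followed each FMO most closely within genotypes were sought, as a description without a test. For Fmo1 they were Zdhhc7, a palmitoyltransferase gene (r = 0.96 over 10 animals), Atp5b, which encodes the catalytic beta subunit of ATP synthase (r = 0.935), and Smad2, a transducer of TGF beta signals (r = 0.898). For Fmo2 they were Fndc3a (r = 0.949), Gpam, the mitochondrial acyltransferase of glycerolipid synthesis (r = 0.949), and Zfp141 (r = 0.94). For Fmo5 they were the transcription factor gene Nfix (r = 0.946), the leucyl-tRNA synthetase gene Lars (r = 0.942) and Exosc10, a nuclease of the RNA exosome (r = 0.937). None of these 9 passed between genotypes, the largest difference being that of Smad2 at 0.34 log2 (adjusted p = 0.59 in limma). Picked as the highest among 8532 genes over only 10 animals, their r values are large in part through the search itself.

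By RefSeq gene order Fmo4, Fmo1 and Fmo2 follow each other on chromosome 1, and Fmo5 lies apart on chromosome 3. The 3 nearest tested genes on either side of each locus were 12 genes in all, 6 with positive and 6 with negative differences, and 0 passed (lowest adjusted p = 0.67 in limma). Beside the chromosome 1 genes, Prrc2c was at 0.27 log2 (SE 0.30), Vamp4, which encodes a vesicle SNARE, at -0.07 (SE 0.13) and Kifap3, a kinesin-associated gene, at -0.05 (SE 0.11). Pigc, Scyl3 and Mettl18 were between -0.07 and -0.01. Beside Fmo5, the chromatin remodeller gene Chd1l was at 0.14 (SE 0.19), the phosphatase gene Acp6 at 0.25 (SE 0.15), Gpr89 at 0.17 (SE 0.09) and Pde4dip at -0.23 (SE 0.20). Other tested probe sets of Vamp4 and Pde4dip had the opposite sign, at 0.20 (SE 0.17) and 0.08 (SE 0.18). Sec22b and the receptor gene Notch2 were at 0.06 and 0.11.

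Neither genes that supply the cofactors of FMOs nor, as a separate list, genes of microsomal electron transfer passed. Of 13 tested NADPH supply genes 6 were positive and 7 negative, with a median of -0.0022 log2 and 0 passing in either direction. Nnt, the mitochondrial transhydrogenase that makes NADPH from NADH, was at 10.66 ± 0.17 in APOE3 and 10.35 ± 0.16 in APOE4 (SD, n = 5 each), a difference of -0.31 (SE 0.11, adjusted p = 0.58 in limma). The other tested Nnt probe set was at 0.03 (SE 0.13, adjusted p = 0.96 in limma), so the 2 differed in sign. Mthfd1, a folate enzyme, was at -0.19 (SE 0.11), with other tested probe sets at -0.03 (SE 0.19) and -0.09 (SE 0.17). Pgls of the pentose phosphate pathway was at 0.25 (SE 0.16). Of 4 tested genes of riboflavin and FAD supply 3 were positive and 0 passed, with a median of 0.10; the FAD synthase gene Flad1 was at 0.14 (SE 0.13), the riboflavin kinase gene Rfk at 0.07 (SE 0.09) and Slc25a32 at 0.13 (SE 0.28), with its other tested probe set at -0.40 (SE 0.19). Of 7 tested microsomal electron transfer genes 2 were positive and 5 negative, with a median of -0.08 and 0 passing. Cyb5b was at 0.25 (SE 0.15), Pgrmc2 at 0.30 (SE 0.20) and Cyb5a, microsomal cytochrome b5, at -0.08 (SE 0.07).

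Of 20 tested transcription factors and hormone signalling genes linked to FMO expression, 14 were positive, 6 negative and 0 passed, with a median of 0.05 log2. Foxa1, a forkhead factor of hepatocytes, had the smallest p, at 6.41 ± 0.27 in APOE3 and 6.92 ± 0.27 in APOE4 (SD, n = 5 each), a difference of 0.51 (SE 0.16, unadjusted p = 0.0089, adjusted p = 0.53 in limma). Hnf4a, a nuclear receptor central to hepatocyte identity, was at -0.22 (SE 0.14), with its other tested probe sets at 0.12 and 0.02, and Ppara, the fatty acid sensing receptor, at -0.22 (SE 0.17). Among 11 tested genes of other liver oxidases, 8 were positive, 3 negative and 0 passed, with a median of 0.13. The monoamine oxidase gene Maoa was at 0.26 (SE 0.11), the aldehyde oxidase gene Aox3 at 0.30 (SE 0.13) and the glycolate oxidase gene Hao1 at 0.26 (SE 0.11), each with an unadjusted p under 0.05 and an adjusted p from 0.58 to 0.60 in limma. These 3 were named because their p was the smallest of the 11. Over all tested probe sets 8% reached an unadjusted p under 0.05.

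FMO1 is known to oxidise hypotaurine to taurine, so genes of the cysteamine, hypotaurine and taurine pathway were set beside Fmo1. Of 9 tested, 6 were positive, 3 negative and 0 passed, with a median of 0.12 log2. This list was chosen with earlier results of these data known, and the 3 genes named next had the smallest p of the 9. Csad, the decarboxylase that makes hypotaurine, was at 8.29 ± 0.44 in APOE3 and 9.69 ± 0.47 in APOE4 (SD, n = 5 each), a difference of 1.40 (SE 0.25, adjusted p = 0.17 in limma). Vnn3, a pantetheinase-like gene, differed by 0.39 (SE 0.14; limma, adjusted p = 0.58), and Baat, which joins bile acids to taurine, by -0.12 (SE 0.09, adjusted p = 0.76). Sex-dependent liver genes, a class that includes some FMO genes in mice, were also counted. Of 10 tested female-biased genes 8 were positive and 0 passed, with a median of 0.28, and of 9 tested male-biased genes 6 were positive and 0 passed, with a median of 0.10.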

How the data were processed

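The deposited table holds log2 values. According to the submitters' processing notes the authors used GCRMA 2.12.1 and R 2.7.1 to make the deposited log2 values; probe filters and a genome build were not given in those sources. The table had 0 columns of no sample. Groups come from the sample titles. Of the probe sets, 34958 had 1 symbol, 932 several and 9211 none in the platform annotation. After removal of 64 control probe sets, those with a mean of at least 4 entered a two-sided limma 3.58.1 fit (R 4.3.3; lmFit, then eBayes with no trend) with Benjamini-Hochberg adjustment and a threshold of 0.05. On 14732 simulated probe sets this recovered 46% of differences of 0.5 log2, 76% of 1 and 96% of 2, with 13 false calls among 172. The simulation held 50 changed probe sets at each size. Its 172 calls, against 12 in the real data, made the adjusted cut-off looser. These percentages are therefore a check of the code and not the power of the FMO tests. The median SE of a difference was 0.142; precision is limited by how many arrays there were. Correlations used 100000 permutations (scipy 1.17.1) or, within genotypes, all permutations.

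The members, gene lists and the rule for named genes were chosen with earlier results of these data known. The rule took all FMO probe sets, the 3 genes most like each FMO within genotypes, the 3 tested neighbours on either side and up to 3 genes of smallest p per list. The main probe set of a gene was that with the highest mean. For the sex-biased lists only counts are given, and for the cell type lists counts or summed levels. Ranges are added for cholangiocyte, lymphocyte, adipocyte and pancreas markers that were not under 4 on every array. Neighbours came from RefSeq genes of GRCm38.p6. No batch was given in the labels. Same-numbered animals of the 2 genotypes had correlations of -0.079 to 0.414 in their deviations, so the numbers were not taken as pairs. The correlations with control probe sets were added after seeing the data. Figures were drawn with matplotlib 3.10.9.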

Additional observations from a re-analysis of the deposited data

Results flagged for a closer look

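In 4 cases 1 of the 5 animals of a genotype stood apart from the other 4 by more than 0.71 of the group's whole range (Dixon's criterion), among 20 groups looked at, of which chance flags about 1 in 20. The 20 groups are not independent, because probe sets of the same gene were read in the same animals. The 4 cases are therefore not separate events to set against that rate. Of the 4 cases, 3 were APOE4 replicate 4 and lay below its group. Fmo1 at 1417429_at was 10.73 there, with the next animal at 11.02. Fmo5 at 1450332_s_at was 10.76, with the next at 11.42, and at 1421709_a_at it was 8.65, with the next at 9.56. The fourth was APOE3 replicate 5, in which Fmo5 at 1440899_at was 11.06 and the next animal 10.58. In APOE4 replicate 4 the Actb and Gapdh 3' minus 5' differences were 2.97 and 0.617, against 2.46 to 2.70 and 0.299 to 0.407 in the other APOE4 animals, while its median correlation with the other arrays was 0.982 in a range of 0.976 to 0.985. Over all 10 animals the r of these differences with Fmo5 1450332_s_at was -0.42 (Actb, adjusted permutation p = 0.454) and -0.205 (Gapdh, adjusted permutation p = 0.624), and with Fmo1 -0.653 and -0.695 (both adjusted permutation p = 0.116).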

How the results depend on the processing

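Of 135 alternative fits of the 7 tested FMO probe sets, 131 kept the direction and 0 reached the adjusted threshold in limma (lowest adjusted p = 0.37). They covered other filters, variance models, array weights, rescaling, a floor at 4, 1 probe set per gene, the replicate block, the Actb covariate (chosen after seeing the data) and each animal left out. The filters, variance models, floor, 1 probe set per gene and replicate block cannot alter the difference of these probe sets, only its p. Their direction was therefore fixed, and only the other settings could have changed it. The 4 that changed sign were Fmo2 with 1 APOE3 animal left out, where the difference ran from -0.24 to 0.092 at 1435459_at, -0.074 to 0.26 at 1453435_a_at and -0.31 to 0.031 at 1422905_s_at. Fmo1 ran from 0.14 to 0.25, and Fmo5 from -0.62 to -0.32 at 1421709_a_at, -0.46 to -0.19 at 1450332_s_at and -0.22 to -0.04 at 1440899_at. With arrays centred on their median over tested probe sets, Fmo1 was at 0.13. The exact permutation test put 0 of the 7 under 0.05. Over all probe sets, 12 passed, 8 to 14 with 1 animal left out, 5 with a mean of at least 6 and 7 with 1 probe set per gene, where fewer were tested. With the replicate number as a block 11 passed, 2 of 5 animals of either genotype correlated best with their own number, and no FMO call changed. Between genes, r of Fmo1 with Fmo5 was 0.679 on values minus the genotype mean (unadjusted exact permutation p = 0.0447), and r of Fmo2 with Fmo5 was 0.486 without the 2 animals farthest from the median of Fmo2 and 0.166 without those farthest from that of Fmo5; the cause was not tested. A GCRMA value near its floor limits what Fmo4 and 2 of 5 Fmo2 probe sets can show.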
